A study of Mus musculus with 6 samples.

Results

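Transcripts of *Ptgfrn*, which encodes the prostaglandin F2 receptor negative regulator, were compared between M2c-polarized macrophages from sEH-/- and wild-type mice together with those of its relative *Igsf8* and of 8 tetraspanins, *Cd9*, *Cd81*, *Cd82*, *Cd63*, *Cd151*, *Cd53*, *Cd37* and *Tspan4*. These 10 genes were found by symbol among the 19309 genes of the count table, each on a single row. *Ptgfrn* was chosen by its lower count in sEH-/- cells in this same comparison, so its values are a description and carry no test. The other 9, called partners here, were taken as known relatives or binding partners of its protein.

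Bone marrow monocytes from 3 sEH-/- and 3 wild-type mice spent 7 days in culture with both M-CSF and GM-CSF. Cells of either genotype then received IFN-γ with LPS for 24 hours and, on top of it, TGF-β1 for another 48 hours, so that by label the groups shared all treatments and differed in the deletion of the soluble epoxide hydrolase (sEH). The study's methods describe age- and strain-matched littermates whose marrow was taken at 8 to 10 weeks of age, and they give a shorter IFN-γ and LPS step than the labels do. Each library came from one mouse. The labels give no sex, and the study describes its later experiments as done with cells of female mice.

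PTGFRN and IGSF8 belong to a small group of immunoglobulin-superfamily membrane proteins named EWI proteins after a shared Glu-Trp-Ile motif. They bind the tetraspanins CD9 and CD81 directly and tightly. Tetraspanins are multi-pass membrane proteins that gather integrins, proteases and immune receptors into membrane microdomains, and in macrophages CD9 and CD81 are known for restraining cell fusion. EWI proteins also connect these microdomains to actin through the ERM proteins (ezrin, radixin and moesin), and PTGFRN received its name because it was found to lower prostaglandin binding by the prostaglandin F receptor.

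Library totals lay between 4400197 and 6096440 counts, with a mean of 5077302 in sEH-/- and 5392472 in wild-type cells. *Ephx2*, the gene encoding sEH, had 1 to 4 counts in the sEH-/- libraries and 26 to 57 in the wild-type libraries. All 8 macrophage markers examined were expressed, with mean levels between 124 CPM (counts divided by the TMM-scaled library total and multiplied by 1e+06; *Itgam*) and 424 CPM (*Csf1r*) in wild-type cells. Of 6 B cell markers listed, 3 were in the table, and they summed to at most 1.01 CPM in any library. Of 6 T and NK cell markers listed, only 1, *Klrb1c*, was in the table, with at most 0.81 CPM in any library. Reads had been de-duplicated before counting, and in abundant genes the counts no longer grew in proportion to the library total. Among 617 genes with at least 0.4 counts per base of their longest coding transcript, the median slope of log count on log library total was 0.50, against 1.15 for 3251 genes with 0.1 to 0.2 counts per base.

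*Ptgfrn* (ENSMUSG00000027864) codes for protein and lies on chromosome 3 of mm10 (minus strand), from 101040232 to 101110278. Its counts were 318, 266 and 174 in sEH-/- replicates 1, 2 and 3 and 707, 1278 and 729 in wild-type replicates 1, 2 and 3. In normalized units this was 54.4, 53.7 and 40.4 CPM against 155, 207 and 131 CPM. All sEH-/- libraries lay below all wild-type libraries. Averaged over the 3 mice of a genotype, wild-type cells held 164.5 ± 39.1 CPM (SD) and sEH-/- cells 49.5 ± 7.91 CPM (SD). The fitted log2 fold change of sEH-/- over wild-type (log2FC) was −1.73 (SE 0.17), which is 0.302 of the wild-type level. In bulk RNA, a lower level per cell and fewer cells that express the gene cannot be told apart.

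The ratio to *Igsf8* within each library shows the same ordering and uses no scaling factor. It is not free of the loss of proportionality described above. *Igsf8* carried 0.37 counts per base of the longest coding transcript and *Ptgfrn* 0.098. The ratio also rests on the *Ptgfrn* counts for which the gene was chosen, so it is a description. For every 100 counts of *Igsf8* there were 29.7, 27.0 and 18.6 counts of *Ptgfrn* in sEH-/- cells and 70.9, 101 and 62.2 in wild-type cells. Per kilobase of exon, the *Ptgfrn* level was 0.148, 0.135 and 0.093 of that of *Igsf8* in the sEH-/- libraries and 0.35, 0.51 and 0.31 of it in the wild-type libraries. Per kilobase, *Ptgfrn* was the scarcer of both in every library, whereas in counts wild-type replicate 2 held slightly more *Ptgfrn* than *Igsf8*.

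**Figure D1:**
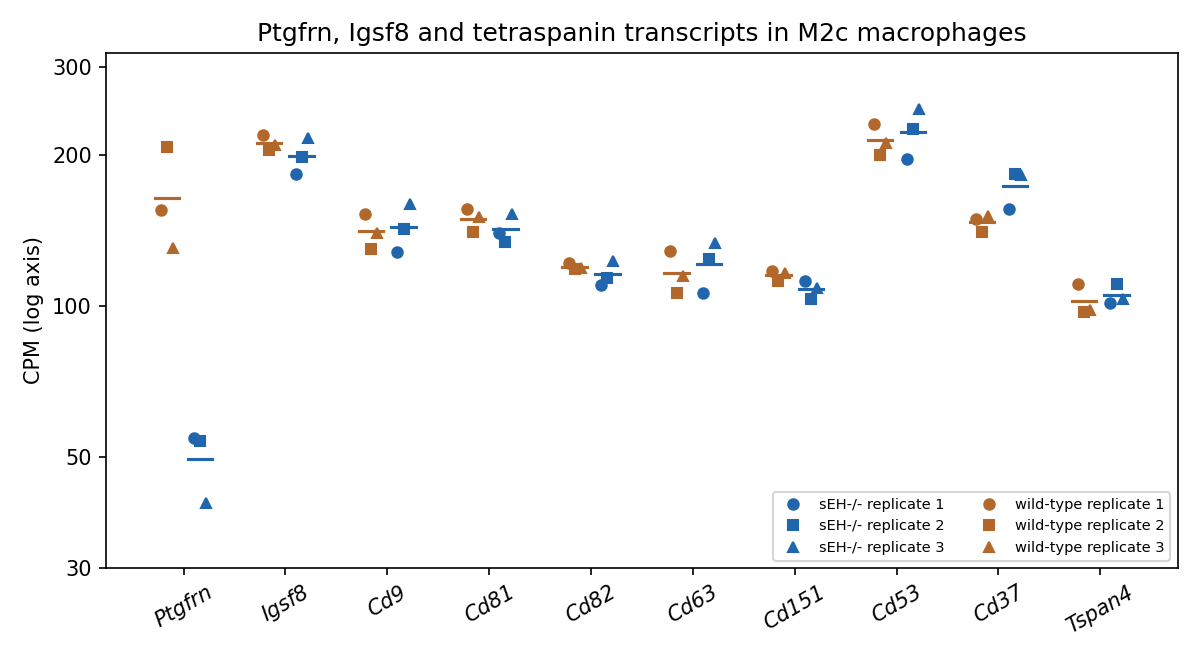
Level of each of the 10 genes in the 6 libraries, in CPM on a log axis, with 1 symbol per library and a short line at the mean of each genotype (n = 3 mice). The *Ptgfrn* points of sEH-/- cells lie between 40.4 and 54.4 CPM, under the wild-type points at 131 to 207 CPM, while the points of the 2 genotypes overlap for 8 of the 9 partners.

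Wild-type replicate 2, the library with the most *Ptgfrn*, also held the most transcripts of stromal cells such as fibroblasts. Of 7 stromal markers listed, 6 were present in the table, and their summed level was 20.9, 20.4 and 11.4 CPM in sEH-/- and 7.04, 63.1 and 24.6 CPM in wild-type replicates 1, 2 and 3. The members of this list did not move together. The collagen genes *Col1a1*, *Col1a2* and *Col3a1* were highest in wild-type replicate 2 (19.6, 27.8 and 7.14 CPM), as was *Pdgfra* (2.11 CPM), whereas *Dcn* (4.79 CPM) and *Pdgfrb* (4.96 CPM) were highest in sEH-/- replicate 1, and 0 of the 5 tested were called. The log2FC by edgeR was −2.1 for *Col1a2* (adjusted p = 0.14), −1.3 for *Col1a1* (0.35) and −0.54 for *Col3a1* (0.69). It was 0.84 for *Dcn* (adjusted p = 0.34) and 0.51 for *Pdgfrb* (0.32). The *Ptgfrn* level of wild-type replicate 1, the library with the lowest stromal sum, was 155 CPM. Without wild-type replicate 2, the log2 fold change of *Ptgfrn* was −1.52. Summed macrophage markers were 1985, 2396 and 2457 CPM in sEH-/- and 2204, 1744 and 1834 CPM in wild-type cells, and all 8 had a log2FC above 0. They carried from 0.15 (*Itgam*) to 0.91 (*Cd68*) counts per base of the longest coding transcript. Their median log2FC was 0.21. Over all genes averaging 50 counts or more, it was 0.074 for the 617 with at least 0.4 counts per base. It was 0.023 at 0.2 to 0.4 and −0.0090 at 0.1 to 0.2, the range of *Itgam* (log2FC 0.17). The part of this rise in the marker values was not tested. Of the 8 macrophage markers, 0 were called and 3 had an unadjusted p below 0.05 in edgeR, among them *Cd14*, an LPS co-receptor, which passed the adjusted p but not the fold limit (log2FC 0.50, adjusted p = 0.029). Neutrophil markers (6 of 8 listed in the table) summed to 28.2, 31.9 and 29.7 CPM in sEH-/- and 17.4, 19.6 and 21.2 CPM in wild-type cells, nearly all of it from *S100a8*. Megakaryocyte and platelet markers (3 of 6) lay between 62.8 and 74.2 CPM in sEH-/- and between 59.7 and 66.0 CPM in wild-type cells, and dendritic cell markers (5 of 7) between 27.0 and 57.7 CPM and between 42.2 and 58.9 CPM, with *Cd209a* at 0 counts throughout. These sums came mostly from *Pf4* and *Clec9a*. Of the scarcer markers, the platelet integrin gene *Itga2b* had 2.12 ± 0.27 against 4.48 ± 1.46 CPM (SD, n = 3 mice each) without overlap (log2FC −1.09, adjusted p = 0.084), and the dendritic cell factor gene *Zbtb46* 5.94 ± 3.07 against 11.5 ± 2.79 CPM (log2FC −0.98, adjusted p = 0.11). The platelet list did not move together, since 2 of its 3 tested genes were above 0. These were *Ppbp* (log2FC 0.90, adjusted p = 0.31), highest in sEH-/- replicate 1, and *Pf4* (0.18, adjusted p = 0.26). All 3 tested dendritic cell markers were below 0. The part of these cell types in the *Ptgfrn* difference was not tested.

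*Igsf8* (ENSMUSG00000038034, plus strand of chromosome 1, 172261641 to 172319841) encodes the closest relative of PTGFRN among the 10 genes, and its protein likewise binds CD9 and CD81. It had 1072, 984 and 934 counts in sEH-/- and 997, 1260 and 1172 in wild-type cells, or 183, 199 and 217 CPM against 219, 204 and 210 CPM. The genotypes overlapped. The log2FC was −0.08 (SE 0.078, 95% interval −0.26 to 0.090, adjusted p = 0.57 by edgeR over all tested genes, as for every adjusted p that follows), an interval that does not reach the decrease seen for *Ptgfrn*.

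*Cd9* (chromosome 6, 125460266 to 125494791) encodes the tetraspanin for which PTGFRN was named a CD9 partner, and *Cd81* (chromosome 7, 143052739 to 143067934) encodes the second direct partner, a tetraspanin found on most cell types. *Cd9* had 128, 143 and 160 CPM in sEH-/- and 153, 130.0 and 140.0 CPM in wild-type replicates 1, 2 and 3. The sEH-/- values spanned the wild-type values, and the log2FC was 0.025 (SE 0.093, 95% interval −0.18 to 0.23, adjusted p = 0.90). *Cd81* had 139.6, 134 and 153 CPM against 156, 141 and 150.4 CPM. Its log2FC was −0.067 (SE 0.075, 95% interval −0.23 to 0.099, adjusted p = 0.64), again with overlapping genotypes.

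*Cd151* and *Tspan4* lie next to each other on the plus strand of chromosome 7, from 141467392 to 141471473 and from 141475240 to 141493427. CD151 is the tetraspanin that binds laminin-binding integrins, and TSPAN4 is known from migrasomes, vesicles left behind by migrating cells. *Cd151* had 112, 103 and 108.5 CPM in sEH-/- and 118, 112 and 116 CPM in wild-type cells. Its highest sEH-/- library touched only the lowest wild-type library, and the log2FC was −0.093 (SE 0.067, 95% interval −0.24 to 0.057, adjusted p = 0.45). *Tspan4* had 102, 111 and 103 CPM against 111, 97.4 and 98.0 CPM. Here the log2FC was 0.047 (SE 0.077, 95% interval −0.12 to 0.22, adjusted p = 0.77).

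*Cd63* (chromosome 10, 128900989 to 128912822) encodes the tetraspanin of late endosomes and exosomes, and *Cd82* (chromosome 2, 93419111 to 93463140) one known as a metastasis suppressor. *Cd63* had 106, 124 and 133 CPM in sEH-/- and 129, 106 and 115 CPM in wild-type cells, with a log2FC of 0.058 (SE 0.099, 95% interval −0.16 to 0.28, adjusted p = 0.78). *Cd82* had 110.0, 114 and 123 CPM against 122, 118 and 119 CPM. Its log2FC of −0.052 (SE 0.069, 95% interval −0.20 to 0.10, adjusted p = 0.70) was within the replicate error.

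*Cd53* (chromosome 3, 106759921 to 106790149) and *Cd37* (chromosome 7, 45233632 to 45239115) encode the tetraspanins largely restricted to leukocytes. *Cd53* had 197, 225 and 247 CPM in sEH-/- and 231, 200.2 and 212 CPM in wild-type cells, giving a log2FC of 0.056 (SE 0.095, 95% interval −0.15 to 0.27, adjusted p = 0.77). *Cd37* was the one partner whose genotypes did not overlap, with 156, 183 and 182 CPM in sEH-/- and 149, 141 and 151 CPM in wild-type cells. On average sEH-/- cells held 174 ± 15.5 and wild-type cells 147 ± 5.66 CPM (SD, n = 3 mice each), but with a log2FC of 0.24 (SE 0.080, 95% interval 0.064 to 0.42 before adjustment) it was not past the threshold over all genes (adjusted p = 0.10). The adjusted p of *Cd37* ranged from 0.035, without sEH-/- replicate 1, to 0.37, without wild-type replicate 2, over the alternatives.

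A gene was called when its adjusted p was below 0.05 and its change above 1.5-fold in either direction, the limits of the study's methods. All 10 genes had a mean of more than 5 counts and were tested. Of them 1, *Ptgfrn*, was called lower and 0 were called higher, where 1.10% of the 13785 tested genes were called lower, 1.51% higher and 2.61% in either direction. Since *Ptgfrn* was taken for this call, nothing is read from the count. None of the 9 partners was called by edgeR, DESeq2 or limma-voom, and 1 (*Cd37*) had an unadjusted p below 0.05 in edgeR. The share of all tested genes below this unadjusted p was not counted, and 4.01% passed even the adjusted p. Nothing is therefore read from counts at the unadjusted p, here or for any list of genes or markers. The partners had log2 fold changes from −0.093 to 0.24, with 5 above and 4 below 0 and a median of 0.025, beside a median of −0.00092 over all tested genes. At counts per base of the longest coding transcript like those of the partners, the median was higher. It was 0.023 over 2287 genes with 0.2 to 0.4 counts per base and 0.074 over 617 genes with at least 0.4. The genotypes did not overlap for 2 of the 10 genes, beside 26.3% of all tested genes.

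**Figure D2:**
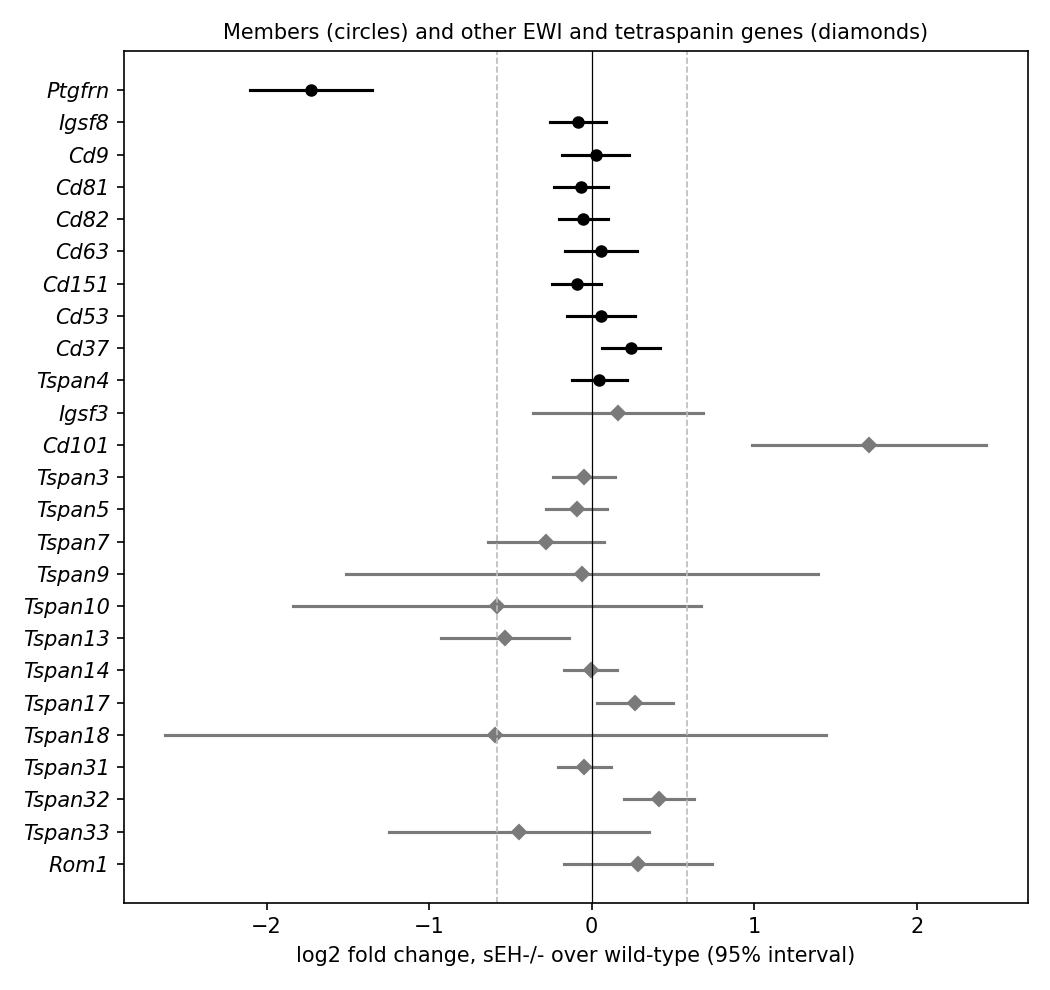
Log2 fold change of sEH-/- over wild-type with its 95% interval for the 10 genes (circles) and for the tested genes among the other EWI proteins and other tetraspanins (diamonds), with dashed lines at a 1.5-fold change. *Ptgfrn* lies at −1.73 and *Cd101* at 1.71, and the 9 partners lie between −0.093 and 0.24.

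The partners were abundant enough for the loss of proportionality described above to touch them. They carried between 0.31 counts (*Cd151*) and 0.65 counts (*Cd53*) per base of the longest coding transcript, against 0.098 for *Ptgfrn*. The highest library total was 1.39 times the lowest, whereas the highest count was 1.14 times the lowest for *Cd63*, 1.16 times for *Cd9* and 1.17 times for *Cd53*. Their slopes of log count on log library total were 0.36, 0.45 and 0.44, and *Cd151* had the highest of the partners at 1.17 (6 libraries, description only). The CPM of *Cd9*, *Cd63* and *Cd53* was highest in the sEH-/- library with the fewest counts, replicate 3. A difference in these genes could be underestimated. Values could also be shifted upward in sEH-/- cells. Among genes averaging 50 counts or more, the median log2FC rose from −0.069 below 0.05 counts per base to 0.074 at 0.4 or more. The part of this shift in the small positive values of *Cd9*, *Cd63* and *Cd53* was not tested. After correction for saturation at 1 count per base of exon, log2FC was −1.77 for *Ptgfrn*, −0.10 for *Igsf8*, 0.011 for *Cd9*, −0.089 for *Cd81* and 0.27 for *Cd37*, and still 0 partners were called. On the length of the longest coding transcript, the values were −1.81, −0.13, −0.019, −0.13 and 0.28 in the same order, again with no partner called.

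**Figure D3:**
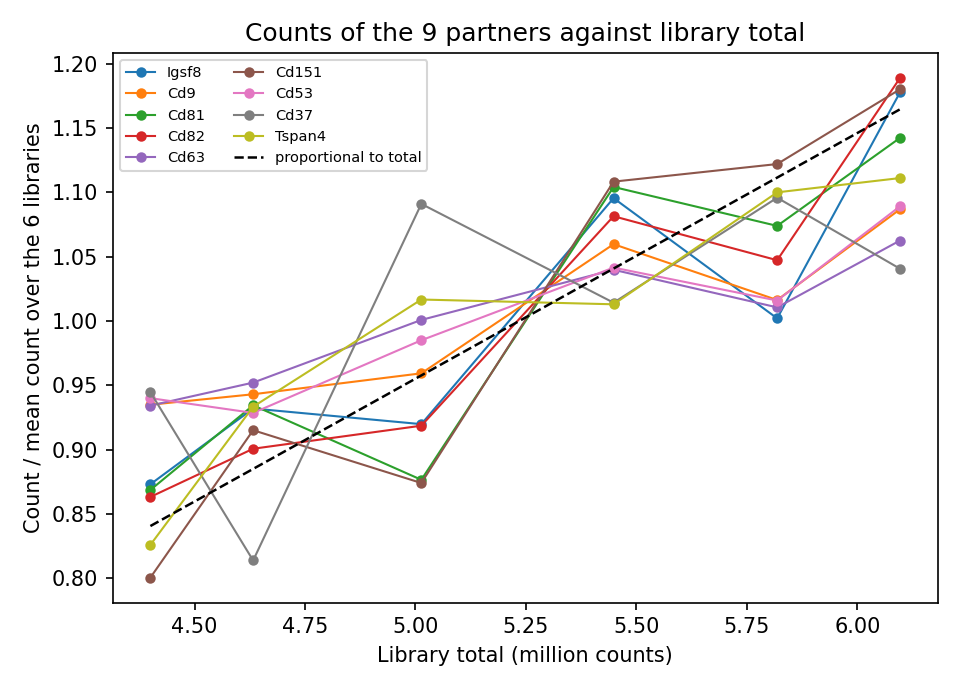
Count of each partner divided by its own mean over the 6 libraries, against the library total, with a dashed line where counts would be proportional to the total. The lines of *Cd63*, *Cd9* and *Cd53* are flatter than the dashed line, with highest-to-lowest count ratios of 1.14 to 1.17 against 1.39 for the totals.

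Levels of different genes were compared per kilobase of exon. In wild-type cells *Cd53* stood highest with 123 ± 9.02 CPM per kilobase (SD, n = 3 mice) and *Cd9* second with 68.9 ± 5.60. *Cd81* had 51.8 ± 2.68, *Tspan4* 46.9 ± 3.48, *Cd151* 42.0 ± 1.07, *Cd37* 41.8 ± 1.61, *Igsf8* 40.5 ± 1.43 and *Cd82* 39.8 ± 0.55 CPM per kilobase. *Cd63* had 31.7 ± 3.11 and *Ptgfrn* was lowest with 15.7 ± 3.74 CPM per kilobase. The ranges of wild-type libraries overlapped between *Cd81* and *Tspan4* and between each of the neighbours from *Cd151* to *Cd82*, and were separate at the other steps of this order. The order depends on the length used. Per kilobase of the longest transcript, *Cd9* (114.8 CPM per kilobase) came close to *Cd53* (123), *Cd81* had 92.8, and *Igsf8* moved up to the fourth place with 73.7, while *Cd53* stayed first and *Ptgfrn* last (27.9). In sEH-/- cells *Ptgfrn* was again last, with 4.73 ± 0.76 CPM per kilobase, and *Cd53*, *Cd9* and *Cd81* again led with 128 ± 14.4, 70.2 ± 7.74 and 49.4 ± 3.34. *Cd37*, at 49.4 ± 4.39, stood level with *Cd81*. Levels of the most abundant members could be underestimated for the reason given above.

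The remaining EWI proteins of the mouse, IGSF3 and CD101, are encoded on the same stretch of chromosome 3 as PTGFRN. *Cd101*, an immunoglobulin-superfamily molecule of leukocytes with inhibitory functions, lies on the same strand as *Ptgfrn*, from 100993529 to 101029556, and changed in the opposite direction. It had 45, 38 and 23 counts in sEH-/- cells against 14, 9 and 11 in wild-type cells, with no overlap in CPM. Means were 6.90 ± 1.36 and 2.17 ± 0.83 CPM (SD, n = 3 mice each), a log2FC of 1.71 (SE 0.33, adjusted p = 0.027). The call rested on few counts and was lost without sEH-/- replicate 2 (adjusted p = 0.074), wild-type replicate 2 (0.15) or wild-type replicate 3 (0.14). *Igsf3* (101377083 to 101463059, plus strand) had 35 to 46 counts per library, and its log2FC of 0.16 (SE 0.24, 95% interval −0.36 to 0.69, adjusted p = 0.73) left room for a change in either direction.

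The sequence upstream of the transcription start is shown for *Ptgfrn*, *Igsf8* and *Cd101*, since of these related genes one was lower, one did not pass the test and one was higher in sEH-/- cells. They were taken from RefSeq (GRCm38.p6, the assembly of mm10) as the part of the 250 bases before the start that overlaps no annotated exon of the gene, at chr3:101110279-101110416 (minus strand), chr1:172312117-172312366 (plus strand) and chr3:101029557-101029803 (minus strand). Capitals mark the GC box GGGCGG, bound by Sp factors, and the Smad element CAGAC, each searched on both strands. The study marks a shorter Smad element, AGAC or GTCT, in the human sEH promoter, and this form is not marked here. The RefSeq start of *Igsf8* lies inside the wider span that GENCODE gives the gene.
Ptgfrn: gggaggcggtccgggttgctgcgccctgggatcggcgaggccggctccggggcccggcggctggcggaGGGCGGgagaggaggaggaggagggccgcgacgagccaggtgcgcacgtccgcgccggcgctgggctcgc
Igsf8: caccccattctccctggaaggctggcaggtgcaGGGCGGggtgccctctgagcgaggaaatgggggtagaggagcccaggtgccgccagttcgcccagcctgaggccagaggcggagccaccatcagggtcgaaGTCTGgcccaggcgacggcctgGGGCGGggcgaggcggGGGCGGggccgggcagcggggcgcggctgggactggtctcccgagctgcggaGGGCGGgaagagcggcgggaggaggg
Cd101: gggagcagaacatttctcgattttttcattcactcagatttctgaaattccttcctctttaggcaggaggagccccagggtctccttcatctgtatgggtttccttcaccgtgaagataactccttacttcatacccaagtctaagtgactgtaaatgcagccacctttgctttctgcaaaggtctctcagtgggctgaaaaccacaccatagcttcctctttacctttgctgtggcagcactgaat

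In the full 250 bases, *Ptgfrn* held 1 GC box and 0 Smad elements of the form CAGAC, *Igsf8* 4 GC boxes and 1 such Smad element, and *Cd101* 0 of either. Only 138 of these bases were free of annotated exons of the gene for *Ptgfrn*, against 250 for *Igsf8* and 247 for *Cd101*. The window of *Ptgfrn* is thus partly exonic. The shorter form used by the study was not counted, and it does occur in the printed sequences of *Cd101* and *Igsf8*. The bases G and C made up 79.2%, 74.8% and 45.2% of these windows, respectively, beside a median of 52.4% over all 32851 promoter windows. A GC box was present in 32.7% and a Smad element in 42.2% of all windows of this length, and the motifs describe letters, not bound sites.

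Of the genes whose lowest coordinate lies within 500 kb of that of *Ptgfrn*, 9 others were in the table and 6 of these were tested. For a minus-strand gene such as *Ptgfrn* or *Cd101*, the lowest coordinate is the end of transcription and not its start. *Cd101* was called higher and 5 were not called, beside 1.51% of all tested genes called higher and 2.61% called in either direction. The genotypes did not overlap in CPM for *Cd101*, *Trim45* and *Gm43464* and overlapped for the other tested neighbours, beside 26.3% of all tested genes without overlap. *Ttf2*, a transcription termination factor, had a log2FC of −0.012 (SE 0.093, adjusted p = 0.95), and *Man1a2*, a Golgi mannosidase, one of 0.18 (SE 0.092, adjusted p = 0.27). *Trim45*, a ubiquitin ligase gene, had 18.4 ± 3.29 in sEH-/- cells against 23.1 ± 2.65 CPM in wild-type cells (SD, n = 3 mice each) and a log2FC of −0.33 (SE 0.17, adjusted p = 0.26). The noncoding *Gm43464* had 5 to 15 counts per library and one of 1.02 (SE 0.41, adjusted p = 0.17). *Cd2*, a lymphocyte adhesion receptor that lies between *Ptgfrn* and *Igsf3*, had 1 count in all libraries together.

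**Figure D4:**
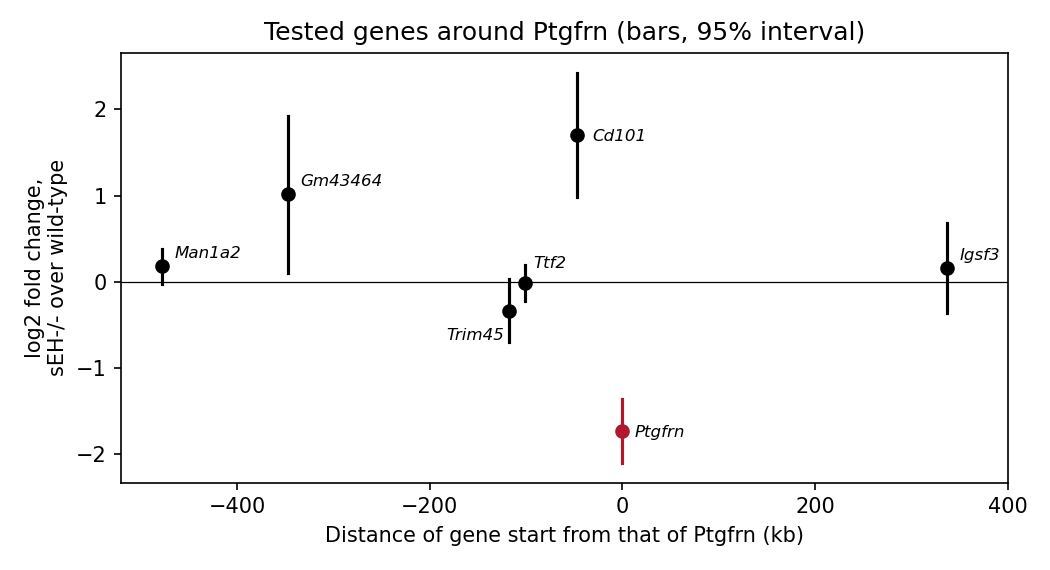
Log2 fold change of sEH-/- over wild-type with its 95% interval for the tested genes within 500 kb of *Ptgfrn*, against distance in kb. Distances are between the lowest coordinates of the genes, named starts on the axis. *Ptgfrn* (−1.73) and *Cd101* (1.71), whose lowest coordinates are 46.7 kb apart, lie on opposite sides of 0. Both are on the minus strand, where the lowest coordinate is the end of transcription.

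Of 23 other tetraspanins listed, 18 were in the table and 13 had enough counts to be tested. None was called by edgeR, DESeq2 or limma-voom, and 3 had an unadjusted p below 0.05 in edgeR. The log2 fold change was above 0 for 3 of them and below 0 for 10, with a median of −0.059. *Tspan14* and *Tspan31* had the most counts. *Tspan14*, whose product escorts the protease ADAM10 to the cell surface, had 147 ± 11.4 in sEH-/- cells against 147 ± 4.0 CPM in wild-type cells (SD, n = 3 mice each), with a log2FC of −0.0062 (SE 0.074, adjusted p = 0.97). *Tspan31* had 144 ± 9.31 and 149 ± 6.71 CPM. *Tspan32*, a tetraspanin of hematopoietic cells, had 361, 281 and 237 counts in sEH-/- cells against 212, 242 and 252 and a log2FC of 0.41 (SE 0.097, adjusted p = 0.047). This passed the adjusted p, as did 4.01% of all tested genes, but not the 1.5-fold limit. The adjusted p of *Tspan32* ranged from 0.039 to 0.22 over the alternatives, and was above 0.05 with DESeq2 (0.058), with library totals only (0.057), with the replicate block (0.083) and when sEH-/- replicate 1 (0.061) or 2 (0.10) or wild-type replicate 2 (0.22) or 3 (0.16) was left out. *Tspan13* had the largest decrease among those with over 50 counts on average, 22.4 ± 2.28 against 32.3 ± 7.76 CPM, and did not pass the test (log2FC −0.53, SE 0.18, adjusted p = 0.11).

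Proteins that work with EWI proteins and tetraspanins were examined next. Of the 3 ERM linkers, which tie EWI proteins to actin, 0 were called and 0 had an unadjusted p below 0.05 in edgeR, and their log2 fold changes were −0.00071 (*Ezr*), −0.031 (*Rdx*) and 0.091 (*Msn*). Of 4 tested integrin partners, 0 were called and 1 (*Itga4*) had an unadjusted p below 0.05. *Itgb1*, the common β-chain, had 365 ± 30.3 in sEH-/- cells against 359 ± 26.1 CPM in wild-type cells (SD, n = 3 mice each), and *Itga5*, the fibronectin receptor α-chain, 398 ± 8.79 against 366 ± 30.7 CPM. The laminin-binding partners of CD151 were scarce or modest, with 0 to 3 counts of *Itga3* per library and 440 to 636 of *Itga6*. Of the shedding proteases, *Adam10* had a log2FC of 0.084 (SE 0.085, adjusted p = 0.60) and *Adam17* one of 0.30 (SE 0.099, adjusted p = 0.10). DESeq2 and limma-voom called none of these genes either.

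Of 8 tested genes of extracellular vesicles, the compartment marked by CD9, CD63 and CD81, 0 were called by edgeR, DESeq2 or limma-voom and 2 had an unadjusted p below 0.05 in edgeR. The median log2 fold change was 0.061, with 7 above 0. *Sdcbp*, encoding syntenin, which binds CD63, had a log2FC of 0.044 (SE 0.099, adjusted p = 0.83), and *Pdcd6ip*, encoding the ESCRT adaptor ALIX, one of −0.0056 (SE 0.073, adjusted p = 0.97).

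For the prostaglandin F2 axis, from which *Ptgfrn* has its name, 3 of 5 listed genes were in the table, and the receptor gene *Ptgfr* was not analysed here. None of the 3 was called by edgeR, DESeq2 or limma-voom, and 1 had an unadjusted p below 0.05 in edgeR. This was *Prxl2b*, encoding a prostaglandin F synthase, with 33.9 ± 3.23 in sEH-/- cells against 44.5 ± 1.0 CPM in wild-type cells (SD, n = 3 mice each) and no overlap (log2FC −0.39, SE 0.10, adjusted p = 0.058). *Akr1b3*, an aldose reductase with the same synthase activity, had 62.9 ± 4.46 and 58.5 ± 5.10 CPM, and *Cbr1*, a carbonyl reductase acting on prostaglandins, 50.1 ± 3.93 and 47.4 ± 2.99 CPM.

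Of 8 tested macrophage fusion genes, 1 was called, and it was higher in sEH-/- cells, beside 1.51% of all tested genes. An unadjusted p below 0.05 was found for 2 of the 8. *Dcstamp*, encoding the fusion receptor of osteoclasts and giant cells, had 142, 143 and 149 counts in sEH-/- cells against 90, 99 and 88 in wild-type cells. In CPM this was 29.2 ± 5.14 against 17.2 ± 2.24 (SD, n = 3 mice each), a log2FC of 0.76 (SE 0.17, adjusted p = 0.036). The call was lost in 5 of 16 alternatives, namely the replicate block and the fits without sEH-/- replicate 2 or 3 or wild-type replicate 2 or 3, with an adjusted p of up to 0.18. *Sirpa* and *Cd44*, the genes of this list with the most counts, had log2 fold changes of 0.19 (SE 0.11, adjusted p = 0.33) and 0.14 (SE 0.085, adjusted p = 0.34). The list had 6 genes above 0 and 2 below, and its osteoclast-type genes had log2 fold changes of 0.87 (*Ocstamp*, with 2 to 20 counts per library), 0.067 (*Acp5*), −0.023 (*Atp6v0d2*) and −0.13 (*Ctsk*), of which 0 were called.

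Finally, genes were ranked by how closely their log2 CPM followed that of *Ptgfrn* over the 6 libraries. Of 10276 genes that averaged 50 counts or more, the 5 most alike were *Pfkfb2* (Pearson r = 0.9965), *Ube2e2* (0.992), *Fxr2* (0.991), *Gstcd* (0.987) and *E2f5* (0.985). These coefficients are descriptions over libraries that differ in genotype and depth. The 5 genes differed far less between the genotypes than *Ptgfrn* did, with log2 fold changes between −0.61 (*Ube2e2*) and −0.15 (*Fxr2*), and 0 of them were called (1 of them, *Gstcd*, had an adjusted p of 0.044, at a log2 fold change of −0.50). For the partners r ran from −0.88 (*Cd37*) to 0.66 (*Cd151*), with 0.32 for *Igsf8*, −0.29 for *Cd9* and 0.22 for *Cd81*. As *Ptgfrn* was chosen for its step between the genotypes, r mostly follows whether a gene has that step. It is no result apart from the fold changes above.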

How the data were processed

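The deposited values are raw counts per Ensembl gene, not normalized. Per the methods, the authors used Trimmomatic for trimming, STAR for alignment (mm10), Picard for removing duplicates and featureCounts for strand-aware counting over exons. Reads from rRNA, mitochondria or several places or genes were left out. Versions of STAR, Picard and featureCounts differ between the methods and the submitters' processing notes. The methods name a total RNA kit and the labels an mRNA kit.

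The 13785 genes averaging over 5 counts were tested with edgeR 4.0.16 (R 4.3.3; TMM, glmQLFit, glmQLFTest, no covariates) and Benjamini-Hochberg adjustment over all of them, and the SE was taken from the F statistic and the log2 fold change. The script was tested on simulated data. DESeq2 1.42.0 and limma 3.58.1 (voom) were alternatives, as were other normalizations and filters, a replicate block, leaving out each library, and a ceiling correction (count n of length L replaced by −L ln(1 − n/L)). The same correction on coding length was chosen after seeing the data. Exonic lengths came from GENCODE M21 (19286 of 19309 identifiers, all on the same chromosome).

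The 10 genes and the lists were chosen with earlier results of these data known. Named genes are the 10, *Ephx2*, called list genes, the 2 genes with most counts per list of related genes, genes within 500 kb of *Ptgfrn* and the 5 most like it. *Tspan13*, *Tspan32*, *Itga3*, *Itga4*, *Itga6*, *Ezr*, *Ctsk*, *Atp6v0d2*, *Ocstamp*, *Acp5*, *Prxl2b* and the cell type markers were named after their values were seen. No pair of libraries agreed within sampling noise (chi-square per degree of freedom 2.24 to 4.89).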

Additional observations from a re-analysis of the deposited data

How the results depend on the processing

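*Ptgfrn* was lower in sEH-/- cells in all 16 alternatives, with log2 fold changes from −1.87 (without wild-type replicate 3) to −1.52 (without wild-type replicate 2), but since its genotypes do not overlap, leaving out a library could not turn the sign. No partner was called in any alternative, and *Igsf8*, *Cd81*, *Cd82* and *Cd151* stayed below 0 and *Cd37* and *Tspan4* above 0 in all 16. With a library left out, log2 fold changes close to 0 changed sign for *Cd9* (−0.047 to 0.10), *Cd63* (−0.0077 to 0.15) and *Cd53* (−0.013 to 0.14), and the ceiling correction on coding length gave −0.019 for *Cd9*. The genes called over the whole table numbered 360, and with a library left out 6 (without wild-type replicate 3), 25 (without wild-type replicate 2) or 96 (without sEH-/- replicate 2) to 625 (without wild-type replicate 1), 234 with the replicate block and 553 with no fold change threshold. Over the 8 lists of related genes, 2 were called in the main fit, which called 2.61% of all tested genes, so nothing is read from this count. With a library left out 0 to 4 were called, with the replicate block 1 and with at least 10 counts in every library 1, where *Cd101* could not be tested. Same-numbered libraries did not deviate together (r from −0.46 to −0.063 over 10277 genes), and none correlated best with its own number. With the replicate block, the log2 fold change was −1.72 for *Ptgfrn* and −0.085 for *Igsf8*, and *Dcstamp* lost its call. Per kilobase of the longest transcript in place of all exons, wild-type levels in CPM per kilobase were 27.9 for *Ptgfrn*, 73.7 for *Igsf8*, 114.8 for *Cd9*, 92.8 for *Cd81*, 65.6 for *Cd82*, 40.3 for *Cd63*, 61.8 for *Cd151*, 57.9 for *Cd37* and 69.6 for *Tspan4*, which left *Cd53* first and *Ptgfrn* last and moved *Igsf8* to the fourth place. With 3 mice per genotype, an exact permutation test of a single gene cannot go below p = 0.1. Depth limits genes such as *Cd101* at the low end, and at the high end counts of *Cd53*, *Cd9* and *Cd63* followed the library total only weakly, for which the cause was not tested.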
